A study of Mus musculus with 19 samples.

Results

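The 38 genes described here belong to the autophagy pathway and were measured in hepatocytes of young and old mice. Autophagy (here macroautophagy) encloses cytoplasm in a double membrane, the autophagosome, and delivers it to the lysosome for breakdown. The genes were chosen by symbol from the table of counts per gene, and all 38 of the 38 listed symbols were found among its 24537 genes. They are 5 genes of the ULK kinase complex, 6 of the class III phosphatidylinositol 3-kinase complexes, 5 of membrane supply, 10 of the 2 ubiquitin-like conjugation systems, 5 of the Atg8 family, 4 cargo receptors and 3 mitophagy genes. The series measured polyadenylated RNA of liver parenchymal cells from male C57BL/6J mice labelled wild type, with no allele or agent other than age separating the groups. The 10 young mice were 5 months old and the 9 old mice were 24 months old, and the cells came from a 2-step liver perfusion. Each mouse gave 1 library, named here by its library number. Mice were culled on 2 days 23 days apart, with 5 young and 5 old mice on the first and 5 young and 4 old mice on the second.

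When nutrients are short, the ULK kinases switch the process on and a lipid kinase marks the site with phosphatidylinositol 3-phosphate. Lipid is then carried to the growing membrane, and 2 enzyme cascades attach Atg8 proteins to it. Receptors that bind both cargo and Atg8 proteins select what is enclosed, including mitochondria in mitophagy. In the liver the pathway is known for supplying amino acids and lipid during fasting and for clearing damaged organelles and protein aggregates. Transcript levels, the quantity measured here, do not give the rate of autophagy.

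Totals over genes ran from 17381439 to 20287628 counts per library. After a filter on low counts 12269 genes were tested, and all 38 autophagy genes passed it, the lowest at 6 counts in a library. The hepatocyte marker list was abundant in both ages, with a summed level of 95849 to 158966 CPM (counts divided by the scaled library size) in young and 120381 to 200483 CPM in old libraries, and by the age test described next 5 of its 10 genes were lower and 2 higher in old libraries. Young libraries 1184, 1186 and 1188 stood apart from the other 7: the summed level of 10 acute-phase genes was 30985 to 56406 CPM in them and 7053 to 8131 CPM in the rest, against 10168 to 30660.4 CPM in old libraries. Their hepatocyte marker sum was 95849 to 98876 CPM, and 140937 to 158966 CPM in the other young libraries. By the same test, markers of other liver cells were higher in old libraries for 13 of 14 macrophage, 9 of 14 endothelial and 12 of 13 tested stellate cell genes, and none of these markers was at 0 in every library. The summed macrophage level was 102 to 508 CPM in young and 69.9 to 3377 CPM in old libraries, the endothelial sum 183 to 335 and 198 to 634 CPM, and the stellate sum 49.3 to 132 and 135 to 477 CPM. Old library 1187 had the highest sum of all 3 lists. The part of these marker differences in the autophagy results was not tested, apart from a fit with the other-cell markers as a covariate. In bulk RNA fewer cells of a type and less RNA per cell cannot be told apart.

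With age, 17 of the 38 autophagy genes fell and none rose. Tests were edgeR's quasi-likelihood test with cull day as a covariate, and a gene was called at a Benjamini-Hochberg adjusted p under 0.05 over all tested genes. The share that fell was 44.7%, beside 14.5% of all tested genes lower and 16.3% higher. The called genes reach from Ulk2, a kinase that starts autophagy, to Bnip3l, a mitophagy receptor, and each of the 7 role groups held at least 1. The call of Atg14 was lost in 9 of the 19 runs that each left out 1 library, and the single mitophagy call, Bnip3l, in 6. With a score of other-cell markers as a covariate 0 membrane supply and 0 mitophagy genes passed. Each change was small: the 17 log2 fold changes ran from -0.56 (a fall of 32.0%) to -0.16 (a fall of 10.8%), and no autophagy gene reached a 2-fold change, which 7.36% of all tested genes did. The estimate was below 0 for 32 of the 38, with a median of -0.17, and below 0 for 50.4% of all tested genes, with a median of -0.003. The background depends on the level: among the 6952 genes with a mean of 10 to under 500 CPM, 21.5% were lower, 7.11% were higher and the median was -0.08, and 35 of the autophagy genes lie there, 17 of them called lower. The estimate was below 0 for 65.6% of the genes in that range. At an unadjusted p under 0.05 the same fit gave 19 lower and 0 higher, beside 42.3% of all tested genes in either direction, and DESeq2 called 19 lower and 0 higher, beside 17.2% and 16.3% of all tested genes. With library totals alone as the scaling, 12 autophagy genes were lower and 0 higher, the calls of Atg14, Atg12, Atg4b, Map1lc3b and Bnip3l being lost, and over all genes 1169 (9.53%) were lower and 2098 (17.1%) higher, in place of 1780 and 2005.

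**Figure D1:**
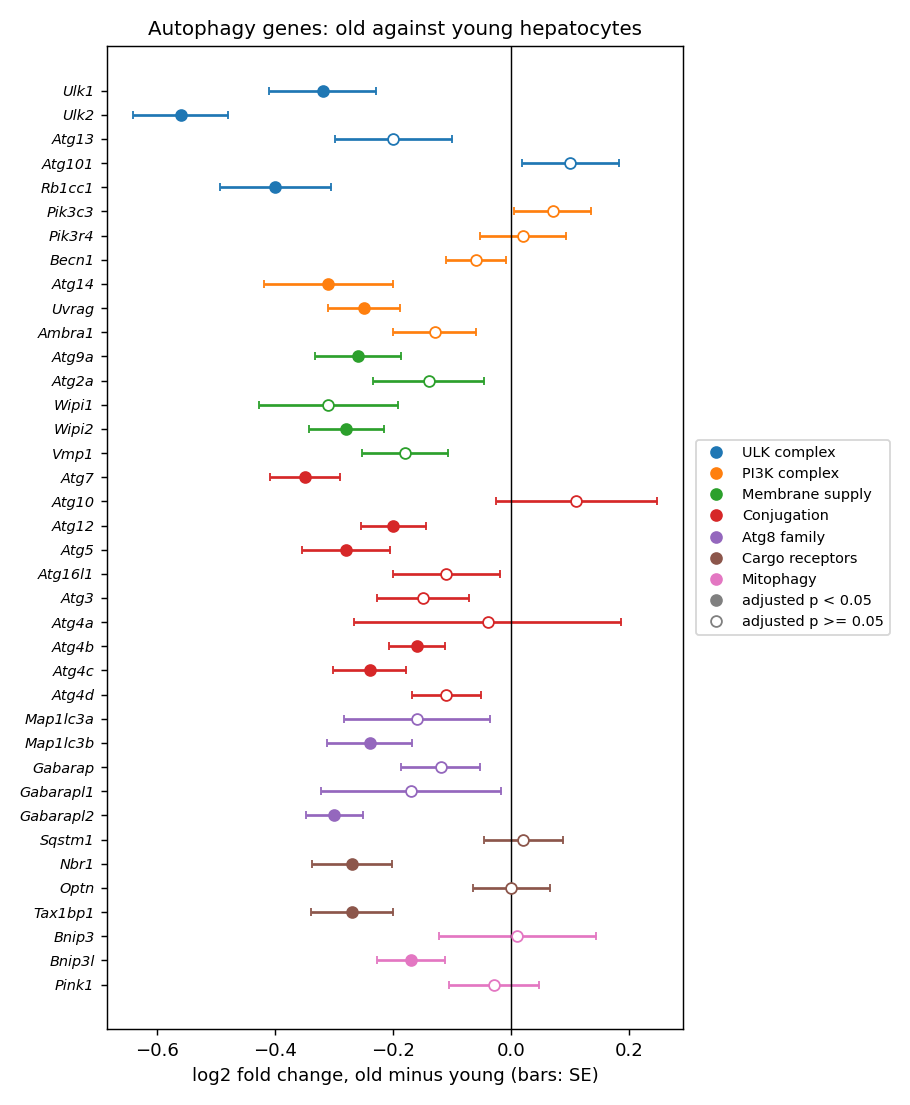
Log2 fold change of each autophagy gene, old minus young (10 young and 9 old mice), with its standard error as a bar, coloured by role. Filled points have an adjusted p under 0.05: all 17 lie left of 0, from -0.56 for Ulk2 to -0.16 for Atg4b.

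Genes of several steps fell together, and promoter sequence is shown for 5 members. A RefSeq promoter window was found for 31 of the 38 genes, and for 29 its start site lies within 200 bases of the start in the counts table. The 250 bases before the start are printed 5′ to 3′ on the gene's strand, from RefSeq on GRCm38.p6. Ulk2 is shown as the gene with the steepest fall and Gabarapl2 as the gene whose age groups did not overlap. Atg5 (fell) and Atg3 (did not pass the test) carry an E-box, the CACGTG core bound by the MiT/TFE lysosomal regulators and other factors, given in capitals. Sqstm1 is shown as the most abundant member per length, and it did not pass the test. The windows are chr11:61855093-61855342 on the minus strand for Ulk2, chr8:111940453-111940702 on the plus strand for Gabarapl2, chr10:44268089-44268338 on the plus strand for Atg5, chr16:45158579-45158828 on the plus strand for Atg3 and chr11:50210821-50211070 on the minus strand for Sqstm1.
Ulk2: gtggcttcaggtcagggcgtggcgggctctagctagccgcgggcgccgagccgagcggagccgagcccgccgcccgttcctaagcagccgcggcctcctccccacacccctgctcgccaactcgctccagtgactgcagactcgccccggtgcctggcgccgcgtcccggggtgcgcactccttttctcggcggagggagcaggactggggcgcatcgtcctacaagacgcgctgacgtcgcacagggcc
Gabarapl2: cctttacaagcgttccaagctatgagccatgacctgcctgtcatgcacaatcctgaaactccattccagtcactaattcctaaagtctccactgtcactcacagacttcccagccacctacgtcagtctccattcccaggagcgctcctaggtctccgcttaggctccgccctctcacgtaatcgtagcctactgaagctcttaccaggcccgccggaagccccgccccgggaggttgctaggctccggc
Atg5: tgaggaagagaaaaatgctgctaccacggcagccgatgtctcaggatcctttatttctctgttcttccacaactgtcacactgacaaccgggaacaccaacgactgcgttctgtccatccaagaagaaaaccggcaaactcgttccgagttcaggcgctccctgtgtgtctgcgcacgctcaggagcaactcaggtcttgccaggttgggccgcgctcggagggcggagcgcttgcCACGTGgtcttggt
Atg3: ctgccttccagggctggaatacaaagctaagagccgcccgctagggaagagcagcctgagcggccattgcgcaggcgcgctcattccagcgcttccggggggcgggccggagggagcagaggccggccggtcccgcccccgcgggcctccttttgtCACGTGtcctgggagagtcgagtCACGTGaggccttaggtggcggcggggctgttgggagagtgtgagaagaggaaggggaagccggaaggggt
Sqstm1: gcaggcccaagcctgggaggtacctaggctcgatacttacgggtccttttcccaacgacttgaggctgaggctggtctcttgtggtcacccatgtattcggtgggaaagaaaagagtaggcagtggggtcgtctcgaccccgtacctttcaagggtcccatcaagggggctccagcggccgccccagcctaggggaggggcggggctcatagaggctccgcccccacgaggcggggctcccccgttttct

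The E-box of Atg5 ends 9 bases before the start site, and those of Atg3 end 89 and 66 bases before it. Searched on both strands, CACGTG was present in 3 of the 29 windows (10.3%, Atg3, Atg5 and Bnip3), in 6.02% of all 32851 RefSeq windows of this length and in 952 of the 9510 tested genes that have one. The CLEAR palindrome of lysosomal genes, a 10-base extension of the E-box, was in none of the 29, in 0.240% of all windows and in 0.620% of tested genes. The FOXO site GTAAACA was also in none, beside 3.17% and 2.85%. A GC box (GGGCGG) was in 18 of 29 windows (62.1%, beside 32.7% of all and 62.3% of tested genes), 9 of them in genes that fell, and CCAAT was in 7 (24.1%, beside 33.8% and 40.5%), 3 of them in genes that fell. Such matches describe the letters of these windows only.

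Levels per length, in CPM per kilobase of transcript, differed widely between members. Sqstm1, the cargo receptor p62, stood highest at a mean of 219.9 in young and 221 in old mice. The Atg8 proteins Gabarapl1 (192 and 169), Gabarap (134 and 122), Gabarapl2 (74.4 and 60.2) and Map1lc3b (52.9 and 45.0) were also near the top, and Map1lc3a stood lower (31.8 and 27.6). The mitophagy kinase Pink1 was at 83.9 and 81.2 and the receptor Bnip3 at 63.0 and 62.0. Within a role group levels also differed: among the conjugation genes Atg3 was at 43.0 and 38.3 and Atg7 at 12.7 and 9.97, and in the ULK complex Atg101 was at 30.6 and 32.5 and Rb1cc1 at 5.14 and 3.91. The median member was at 12.6 over all mice. The row named Atg4a was lowest at 0.309 and 0.295, but it lies on chromosome 3 within Syt6 while the RefSeq table places Atg4a on X, so its values may not be those of Atg4a. Genes that fell had a median transcript length of 3421 bases and a median level of 49.2 CPM, and the other 21 had 2113 bases and 43.9 CPM. The members' median coefficient of variation between mice of an age was 11.5% in young and 11.0% in old mice, beside 14.5% and 13.9% over the tested genes with a mean of 10 to under 500 CPM. In young mice it reached 36.2% in the row named Atg4a, 28.6% in Gabarapl1 and in Bnip3, 25.6% in Atg14 and 24.0% in Map1lc3a.

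**Figure D2:**
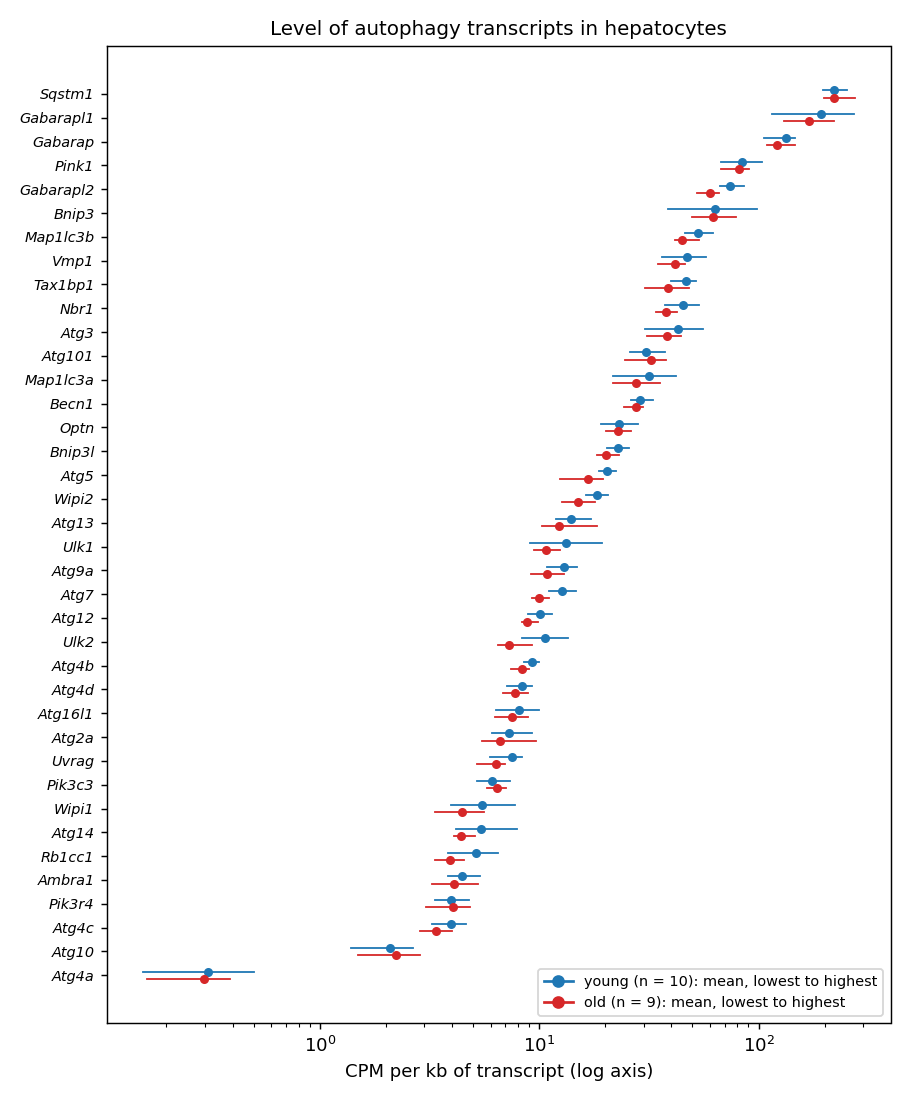
Level of each autophagy transcript in CPM per kilobase (log axis), with the mean as a point and the lowest to the highest mouse as a line, for 10 young and 9 old mice. Sqstm1, Gabarapl1 and Gabarap are at the top, each with means above 100, and the row named Atg4a is at the bottom, near 0.3.

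In the ULK complex, which receives nutrient signals and starts autophagosome formation, 3 of 5 genes fell. Ulk2, 1 of the 2 ULK kinases, ran from 48.2 CPM through a median of 62.1 to 77.9 in young mice and from 37.6 through 41.3 to 53.7 in old mice. Its log2 fold change was -0.56 (SE 0.0806, adjusted p 0.000140), and 7 of 9 old mice were below every young mouse. Ulk1, the other kinase, had 46.7, 65.7 and 99.8 CPM as lowest, median and highest young values and 49.0, 54.5 and 64.4 as old ones. Its log2 fold change was -0.32 (SE 0.0908, adjusted p 0.0142). The groups overlapped throughout the old range, with all 9 old mice below the young median. Rb1cc1 (FIP200), the large scaffold of the complex, spanned 27.0 to 45.5 CPM around a median of 35.8 in young mice and 23.5 to 31.8 around 26.5 in old mice. It fell by 0.40 on the log2 scale (SE 0.0944, adjusted p 0.00498), and 5 old mice were below all young mice. The adaptors Atg13 (-0.20, adjusted p 0.129) and Atg101 (0.10, adjusted p 0.373) did not pass the test. Atg101, the most abundant of the 5 per length, had 31.8, 36.7 and 45.7 CPM in young and 30.2, 41.3 and 46.5 CPM in old mice, with the groups overlapping.

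In the class III phosphatidylinositol 3-kinase complexes, which make the lipid that marks the site, 2 of 6 genes fell, both subunits that set where the kinase works. Atg14, which directs the kinase to forming autophagosomes, had 14.3, 16.2 and 27.2 CPM as lowest, median and highest young values and 14.1, 14.8 and 17.5 as old ones. The log2 fold change of Atg14 was -0.31 (SE 0.109, adjusted p 0.0392). The 3 highest young values were those of libraries 1184, 1186 and 1188, and without these 3 the estimate was -0.08 (adjusted p 0.406). The edgeR call was also lost with library totals alone (-0.26, adjusted p 0.0794) and without the cull day term (-0.31, adjusted p 0.0552), as it was with limma-voom (-0.27, adjusted p 0.0506). Uvrag, the subunit of the endosomal form, ranged over 20.4, 26.4 and 28.5 CPM in young and 17.8, 21.9 and 23.9 CPM in old mice. It fell by 0.25 (SE 0.0608, adjusted p 0.00570), and 8 of 10 young mice were above every old mouse. The catalytic subunit Pik3c3 (0.07, adjusted p 0.407), the regulatory subunit Pik3r4 (0.02, adjusted p 0.840), the core subunit Becn1 (-0.06, adjusted p 0.415) and the Beclin-binding regulator Ambra1 (-0.13, adjusted p 0.154) did not pass the test. Becn1, the most abundant of these per length, had 52.9, 56.9 and 66.4 CPM in young and 49.3, 56.2 and 60.0 CPM in old mice, overlapping ranges. Its row overlaps Cntd1 on the genome.

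Among genes that supply membrane, 2 of 5 fell. Atg9a, the transmembrane lipid scramblase of the seed vesicles, had 44.1, 53.4 and 60.9 CPM as lowest, median and highest young values and 37.7, 45.0 and 52.9 as old ones. On the log2 scale it fell by 0.26 (SE 0.0730, adjusted p 0.0131), with the groups overlapping and all 9 old mice below the young median. Wipi2, which reads phosphatidylinositol 3-phosphate and recruits Atg16l1, spanned 63.6 to 80.1 CPM around 71.0 in young and 49.7 to 70.3 around 58.6 in old mice. It fell by 0.28 (SE 0.0633, adjusted p 0.00345), and 7 of 9 old mice were below all young mice. Its relative Wipi1 had an estimate of -0.31 that missed the threshold (adjusted p 0.0509), as did the lipid transfer protein Atg2a (-0.14, adjusted p 0.251). Vmp1, an endoplasmic reticulum scramblase, had a median of 127 and a highest value of 159 CPM in young mice and 119.6 and 128 CPM in old mice, with overlapping groups and an estimate of -0.18 (adjusted p 0.0718). Its row overlaps 2 microRNA genes, Mir21a and Mir8115.

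Of the 10 conjugation genes, 5 fell. Atg7, the E1-like enzyme that activates both Atg12 and the Atg8 proteins, had 42.7, 48.5 and 56.6 CPM as lowest, median and highest young values and 35.9, 38.3 and 42.9 as old ones. Between the ages it fell by 0.35 (SE 0.0593, adjusted p 0.000427). The groups met only at their edges, with 8 of 9 old mice below all young ones. Atg5, the partner to which Atg12 is joined, ranged over 44.2, 46.4 and 53.1 CPM in young and 29.3, 39.8 and 46.3 CPM in old mice. It fell by 0.28 (SE 0.0741, adjusted p 0.0103), with 7 old mice below all young mice. Atg12, the ubiquitin-like protein itself, spanned 22.2 to 28.5 CPM around 25.8 in young and 20.7 to 24.6 around 21.9 in old mice. Its estimate was -0.20 (SE 0.0554, adjusted p 0.0133), and 5 old mice were below all young mice. With library totals alone it did not pass (-0.15, adjusted p 0.0778).

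Of the Atg4 proteases, which trim Atg8 proteins and release them from membrane, 2 fell. Atg4b, known as the main one in mammals, had 25.2, 27.9 and 29.4 CPM in young and 21.9, 24.4 and 26.5 CPM in old mice. Its log2 fold change of -0.16 (SE 0.0470, adjusted p 0.0138) was the smallest of the 17, and with library totals alone it did not pass (-0.12, adjusted p 0.0571). Atg4c ranged over 10.3, 12.8 and 14.7 CPM in young and 9.06, 10.7 and 12.7 CPM in old mice, an estimate of -0.24 (SE 0.0616, adjusted p 0.00820). In both the groups overlapped, with all 9 old mice below the young median. The other 5 conjugation genes did not pass: the E2-like enzymes Atg3 (-0.15, adjusted p 0.164) and Atg10 (0.11, adjusted p 0.581), the scaffold Atg16l1 (-0.11, adjusted p 0.373), Atg4d (-0.11, adjusted p 0.151) and the row named Atg4a (-0.04, adjusted p 0.901). Atg3, the most abundant conjugation gene per length, spanned 60.7 to 111 CPM in young and 62.1 to 88.2 CPM in old mice.

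In the Atg8 family, the ubiquitin-like proteins that coat the autophagosome, 2 of 5 fell: Gabarapl2 (GATE-16) and Map1lc3b (LC3B). Gabarapl2 was the only one of the 38 genes whose age groups did not overlap, which 0.725% of all tested genes showed in the lower direction. It had 64.9, 71.7 and 83.6 CPM as lowest, median and highest young values and 50.8, 59.3 and 64.4 as old ones. The log2 fold change was -0.30 (SE 0.0479, adjusted p 0.000304). Map1lc3b, the usual protein marker of autophagosomes, had 78.8, 87.0 and 106 CPM in young and 70.7, 75.6 and 91.7 CPM in old mice. It fell by 0.24 (SE 0.0721, adjusted p 0.0199), and 7 of 9 old mice were below all young mice. Without young libraries 1184, 1186 and 1188 its estimate was -0.16 (adjusted p 0.122), and with library totals alone -0.19 (adjusted p 0.0598).

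The other 3 Atg8 genes did not pass the test. Gabarap had 118, 152 and 163 CPM in young and 122, 135 and 164 CPM in old mice (-0.12, adjusted p 0.167). Gabarapl1, the most abundant of the family per length, ranged over 203, 364 and 480.0 CPM in young and 229.9, 300.3 and 390.2 CPM in old mice (-0.17, SE 0.152, adjusted p 0.429). Map1lc3a spanned 22.4 to 43.7 CPM around 36.1 in young and 22.5 to 36.8 around 27.2 in old mice (-0.16, adjusted p 0.326). Without young libraries 1184, 1186 and 1188, which were the lowest young ones in both genes, Gabarapl1 (-0.42, adjusted p 0.0121) and Map1lc3a (-0.34, adjusted p 0.0428) passed by edgeR. Atg8 genes resemble one another, and how reads with several matches were counted is not given in the sources used here.

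Of the cargo receptors, which hold ubiquitin-tagged cargo and an Atg8 protein at once, Nbr1 and Tax1bp1 fell and Sqstm1 and Optn did not pass the test. Nbr1 had 173, 206 and 247 CPM as lowest, median and highest young values and 158, 173 and 196 as old ones. Its log2 fold change was -0.27 (SE 0.0677, adjusted p 0.00733), with 5 old mice below all young mice. Without young libraries 1184, 1186 and 1188 it was -0.17 (adjusted p 0.0606). Tax1bp1 ranged over 130.4, 157 and 169 CPM in young and 99.2, 127 and 158 CPM in old mice. It fell by 0.27 (SE 0.0693, adjusted p 0.00746), with 8 of 9 old mice below all young mice and library 1189 alone inside the young range. Sqstm1 had 398, 427 and 508 CPM in young and 399.8, 442 and 556 CPM in old mice, an estimate of 0.02 (SE 0.0670, adjusted p 0.830). Optn had 45.8, 55.3 and 67.9 CPM in young and 48.1, 55.7 and 62.7 CPM in old mice (-0.00, SE 0.0654, adjusted p 0.967).

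Among the mitophagy genes, Bnip3l (NIX), a receptor in the outer mitochondrial membrane, fell. It had 65.8, 73.4 and 82.9 CPM as lowest, median and highest young values and 59.0, 63.2 and 74.1 as old ones. The log2 fold change was -0.17 (SE 0.0583, adjusted p 0.0295), and 5 old mice were below all young mice. The call did not hold with library totals alone as the scaling (-0.13, adjusted p 0.111), with the other-cell score (-0.06, adjusted p 0.547) or in 6 of the 19 edgeR runs without 1 library (adjusted p up to 0.0579). Its relative Bnip3 (0.01, SE 0.133, adjusted p 0.967) spanned 67.6 to 173 CPM in young mice and 87.4 to 138 in old mice. The kinase Pink1, which marks damaged mitochondria, had 158, 199.8 and 244 CPM in young and 159, 196 and 213 CPM in old mice (-0.03, adjusted p 0.820). Neither passed the test.

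**Figure D3:**
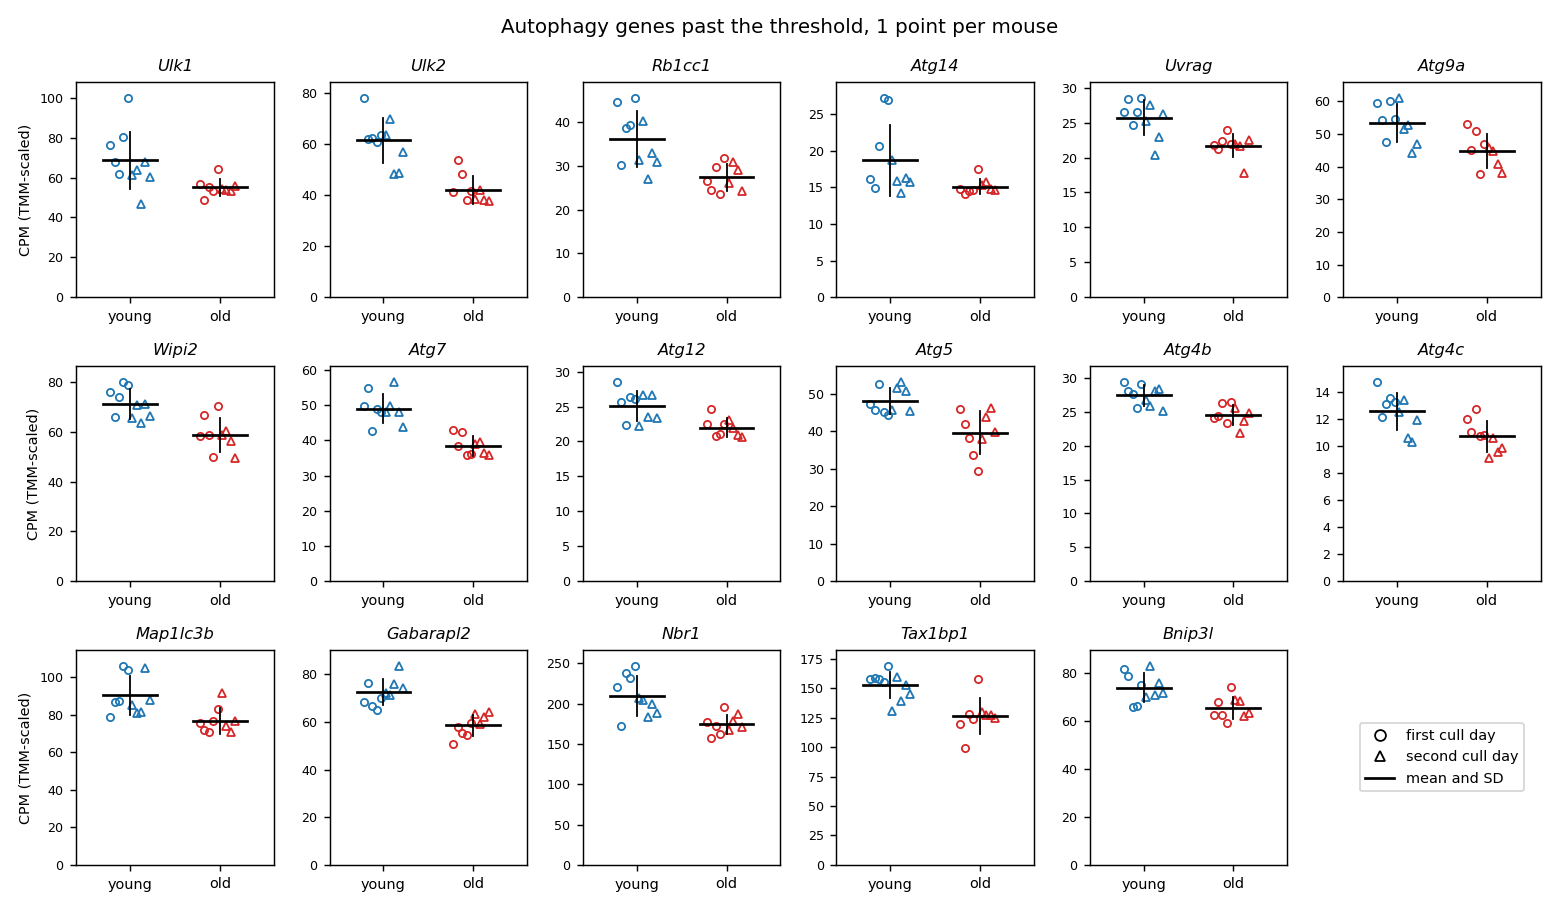
CPM of the 17 autophagy genes that fell, with 1 point per mouse (circles first cull day, triangles second), a horizontal line for the mean and a vertical line for the SD, on axes that start at 0. The groups are apart in Gabarapl2 alone, where the lowest young mouse is at 64.9 CPM and the highest old mouse at 64.4 CPM.

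Ratios of 2 genes within a mouse set related genes against each other. The 12 pairs were chosen with these values known, so their log2 ratios are described here without a test. The ratio of Tax1bp1 to Sqstm1 was lower in old mice by 0.30 on the log2 scale, with all 9 old mice below the young median. It was lower by 0.44 and 0.13 on the first and second cull day, and by 0.23 without young libraries 1184, 1186 and 1188. Nbr1 to Sqstm1 was lower by 0.28, with all 9 old mice below the young median. It was lower by 0.44 and 0.11 on the 2 days and by 0.15 without the same 3 libraries. In both pairs the difference was larger on the first day. Gabarapl2 to Gabarap was lower by 0.17, with 7 of 9 old mice below the young median, by 0.23 and 0.10 on the 2 days, and by 0.21 without the 3 libraries. The log2 ratio of Ulk2 to Ulk1 differed by -0.25, by -0.10 and -0.41 on the 2 days, and by -0.36 without the 3 libraries. Bnip3l to Bnip3 differed by -0.21, but by -0.41 on the first day and 0.02 on the second, and by -0.05 without the 3 libraries. Optn to Sqstm1 differed by -0.02, with -0.01 and -0.03 on the 2 days. In 5 of the 12 pairs, Bnip3l to Bnip3 among them, the sign differed between the days.

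The falls were also fitted with a score of other-cell markers as a covariate, the mean log2 CPM over 43 tested markers of macrophages, endothelial cells, stellate cells, T and NK cells and B cells. That score averaged 2.67 ± 0.505 over the 10 young libraries and 3.68 ± 0.826 over the 9 old ones (SD). All 17 called genes kept a negative estimate, and 7 remained lower by edgeR's adjusted p, beside 6.28% of all tested genes: Ulk2 (-0.45, adjusted p 0.00485), Gabarapl2 (-0.25, adjusted p 0.0125), Atg7 (-0.27, adjusted p 0.0207), Uvrag (-0.29, adjusted p 0.0207), Nbr1 (-0.31, adjusted p 0.0256), Tax1bp1 (-0.30, adjusted p 0.0366) and Atg14 (-0.42, adjusted p 0.0426). The other 10 did not pass in that fit. Of these, Ulk1 (-0.33, adjusted p 0.0762), Rb1cc1 (-0.36, adjusted p 0.0582), Map1lc3b (-0.27, adjusted p 0.0634) and Atg4c (-0.23, adjusted p 0.0658) had estimates close to those without the score. The estimates were nearer to 0 for Atg5 (-0.22, adjusted p 0.120), Wipi2 (-0.19, adjusted p 0.0956), Atg9a (-0.19, adjusted p 0.176), Atg4b (-0.12, adjusted p 0.193), Atg12 (-0.10, adjusted p 0.324) and Bnip3l (-0.06, adjusted p 0.547). Atg101 was called higher there (0.27, adjusted p 0.0409), beside 6.50% of all tested genes. Score and age moved together in these mice.

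The age difference was in the same direction on both cull days for all 17 genes that fell, and 27 of the 38 estimates were below 0 on both. The 17 were called from a fit over both days, so their agreement in sign is not separate evidence. The share of all tested genes below 0 on both days was not computed. With the first day alone 2 genes passed, Ulk2 (-0.55, adjusted p 0.0379) and Rb1cc1 (-0.54, adjusted p 0.0472), beside 1.79% of all tested genes lower. The second day alone gave 6, beside 7.15%: Map1lc3a (-0.48, adjusted p 0.00539), Ulk2 (-0.56, adjusted p 0.00728), Atg7 (-0.38, adjusted p 0.00845), Gabarapl2 (-0.27, adjusted p 0.0179), Wipi2 (-0.26, adjusted p 0.0422) and Gabarapl1 (-0.39, adjusted p 0.0469). Ulk2, Atg7, Gabarapl2, Wipi2 and Rb1cc1 were also called over all 19 mice, and Ulk2 alone was called on each day taken separately. These subsets hold 10 and 9 mice.

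Whether the age difference itself changed between days was tested as an interaction. By edgeR, 0 of 38 genes passed, as did 0% of all 12269, and at an unadjusted p under 0.05 it was 2 of 38, Map1lc3a and Pink1, beside 6.51% of all genes. DESeq2 gave 0 of 38, beside 0.163% of all genes, and limma-voom with sample weights gave these same 2, beside 2.84% of all genes. Map1lc3a averaged 27.0 ± 6.38 CPM (SD, n = 5) in young mice of the first day and 39.0 ± 3.33 (SD, n = 5) in those of the second. Old mice averaged 29.3 ± 5.60 (SD, n = 5) and 27.9 ± 3.16 (SD, n = 4). Its interaction estimate was -0.60 by edgeR (SE 0.209, adjusted p 0.700) and -0.68 by limma-voom (SE 0.148, adjusted p 0.0263). On the second day the highest old mouse, at 31.9 CPM, was below the lowest young mouse, at 34.9 CPM. Other members, Ulk2, Atg7, Wipi2 and Gabarapl2 among them, showed such a gap on that day too. The share of all tested genes with it was not computed.

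Pink1, like Map1lc3a, had its highest mean in young mice of the second day. It averaged 174 ± 20.2 CPM in young and 189.9 ± 20.4 in old mice of the first day (SD, n = 5 each). On the second day the means were 221 ± 18.9 over 5 young and 193 ± 8.59 over 4 old mice (SD). The interaction estimate was -0.32 by edgeR (SE 0.137, adjusted p 0.733) and -0.40 by limma-voom (SE 0.105, adjusted p 0.0444). Gabarapl1 and Bnip3 had young means of 298 and 92.9 CPM on the first day and 381 and 127 CPM on the second, and neither interaction passed by any of the 3 tools. The 3 lowest young libraries in both Map1lc3a and Pink1, 1184, 1186 and 1188, were all of the first day. Without them 0 of 38 genes passed by either tool, beside 0% of all 12354 genes tested in each, and 0 of 38 had an unadjusted p under 0.05, beside 299 of all genes by edgeR and 325 by limma-voom. The Map1lc3a interaction was then -0.37 by edgeR (SE 0.233, adjusted p 1.000) and -0.36 by limma-voom (SE 0.196, adjusted p 1.000), and that of Pink1 -0.15 by both (SE 0.149 and 0.125, adjusted p 1.000 in each). The call for these 2 genes thus depended on the tool and on those 3 libraries. Between the days at like age, 2 genes passed by edgeR, beside 12.3% of all tested genes. Atg3 was higher on the second day (0.29, adjusted p 0.0251), beside 5.72% of all genes, and Atg4c was lower (-0.21, adjusted p 0.0368), beside 6.55%.

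**Figure D4:**
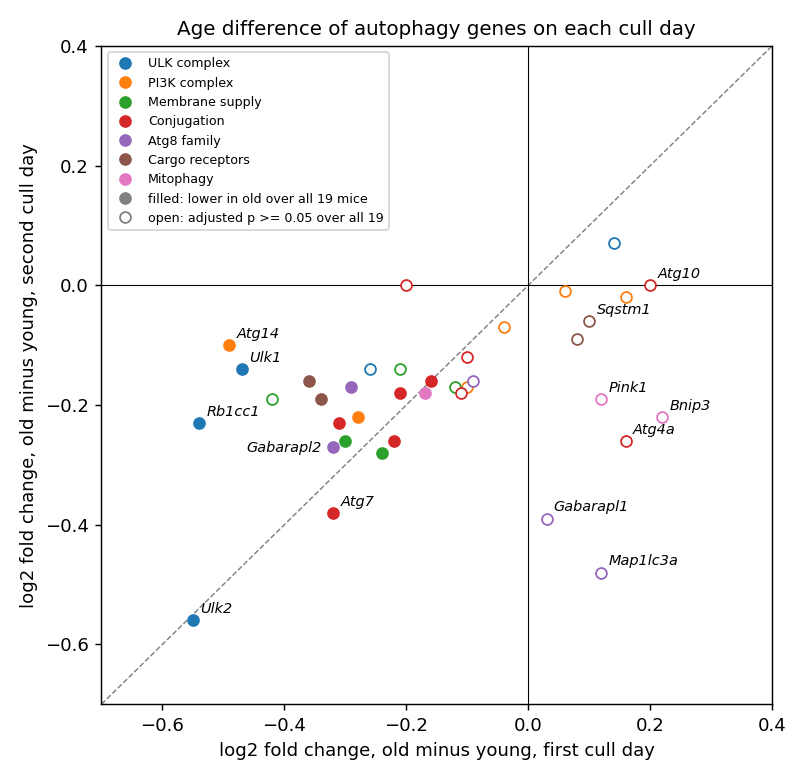
Log2 fold change, old minus young, of each autophagy gene on the first (x axis) and second cull day (y axis), coloured by role, with the dashed line marking equal values. Filled genes, called over all 19 mice, all lie below 0 on both axes, and Map1lc3a (0.12 and -0.48), Bnip3 (0.22 and -0.22) and Gabarapl1 (0.03 and -0.39) are among those well below the line.

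Young libraries 1184, 1186 and 1188, all of the first day, stood apart from the other 7 young libraries in many tested genes, some autophagy genes among them. The counts that follow are not read as particular to autophagy genes. In 7 genes all 3 were below every other young library, beside 11.1% of all tested genes, and in 2 all 3 were above, beside 9.39%. Gabarapl1 was at 203 to 239.8 CPM in the 3 and 308 to 480.0 in the other 7. Pink1 was at 158 to 162 CPM and 192 to 244 CPM. Bnip3 was at 67.6 to 87.8 CPM and 92.8 to 173 CPM. In these 3 genes the old range reached from within the lower young values to within the higher ones.

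The other 4 genes with all 3 below the rest were Atg3 (60.7 to 73.5 and 78.9 to 111 CPM), Atg101 (31.8 to 32.2 and 36.4 to 45.7), Map1lc3a (22.4 to 24.9 and 25.3 to 43.7) and Sqstm1 (398 to 404 and 412 to 508). Atg14 (20.7 to 27.2 and 14.3 to 18.7) and Nbr1 (232 to 247 and 173 to 221) were the 2 that were higher in the 3. Without these libraries 17 autophagy genes again fell, beside 12.5% of all tested genes, of which 14 were the same. Atg14, Map1lc3b and Nbr1 no longer passed. Gabarapl1 (-0.42, adjusted p 0.0121), Atg3 (-0.24, adjusted p 0.0290) and Map1lc3a (-0.34, adjusted p 0.0428) newly did. The part of the acute-phase level in these differences was not tested.

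**Figure D5:**
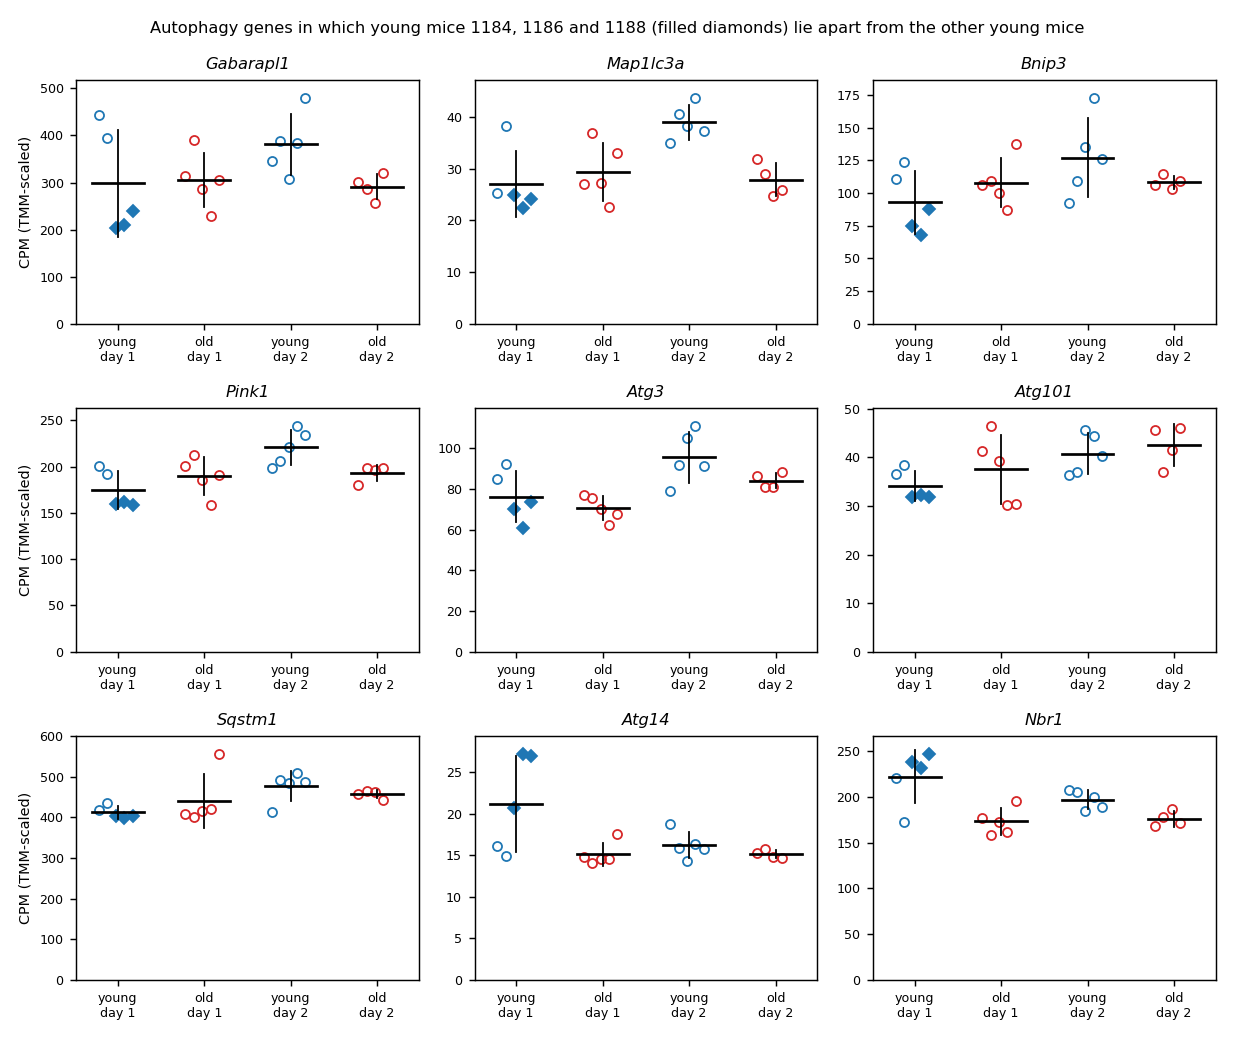
CPM per mouse of 9 autophagy genes by age and cull day, with filled diamonds for young libraries 1184, 1186 and 1188, horizontal lines for means and vertical lines for SDs. The diamonds lie below the other young mice in the first 7 panels, such as Gabarapl1 (203 to 239.8 against 308 to 480.0 CPM), and above them in Atg14 and Nbr1.

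Old library 1189 was the highest old library in 14 of the 38 genes, beside 17.5% of all tested genes, and old library 1187 the lowest in 11, beside 1838 of all 12269. Without 1189, 22 autophagy genes fell, beside 15.2% of all tested genes. The 5 additional ones were Atg13 (-0.29, adjusted p 0.0109), Wipi1 (-0.36, adjusted p 0.0282), Atg2a (-0.22, adjusted p 0.0382), Vmp1 (-0.20, adjusted p 0.0430) and Ambra1 (-0.17, adjusted p 0.0490). Wipi1 also passed without 1180, 1182, 1236 or 1239, and Vmp1 without 1180. Without 1187, 15 fell, beside 12.1% of all tested genes, and Atg14 (-0.29, adjusted p 0.0647) and Bnip3l (-0.16, adjusted p 0.0544) no longer passed. Over all 19 ways to leave out 1 library, 15 of the 17 calls were kept each time, while 2 were not. Atg14 was lost without 1181, 1183, 1184, 1185, 1186, 1187, 1188, 1235 or 1242 (adjusted p up to 0.0777), and Bnip3l without 1180, 1182, 1187, 1237, 1240 or 1242 (adjusted p up to 0.0579).

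Of 78 other genes of the pathway, 76 were tested, and 13 fell and 3 rose, with a median log2 fold change of -0.07, again beside 14.5% and 16.3% of all tested genes. Among the tested genes with a mean of 10 to under 500 CPM, 21.5% were lower, 7.11% higher and the median was -0.08. In the remaining core machinery 4 of 17 fell and none rose. Ykt6, a SNARE of autophagosome fusion, had 67.2, 74.6 and 77.0 CPM as lowest, median and highest young values and 52.2, 56.6 and 66.7 as old ones, with no overlap (-0.36, SE 0.0501, adjusted p 9.38e-05). The lipid transfer protein Atg2b (-0.35, adjusted p 0.0131), Ei24 (-0.26, adjusted p 0.0219) and the scramblase Tmem41b (-0.23, adjusted p 0.0317) also fell. Leaving out 1181, 1182, 1183, 1186, 1187, 1239 or 1242 raised the adjusted p of Tmem41b above the threshold, to at most 0.0603. Ei24, Tmem41b and the receptor gene Ncoa4 did not pass with library totals alone, nor did Tmem41b and Ncoa4 without young libraries 1184, 1186 and 1188. In the other receptors 1 of 18 fell, the ferritin receptor Ncoa4 (-0.21, adjusted p 0.0195).

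Among 41 upstream regulators 8 fell and 3 rose. Those with the smallest p among the falls were Trp53inp2, a nuclear and autophagosomal cofactor (-0.69, adjusted p 0.000524), the mTORC1 subunit Rptor (-0.40, adjusted p 0.00273), the transcription factor Foxo3 (-0.72, adjusted p 0.0109) and the AMPK catalytic subunit Prkaa2 (-0.46, adjusted p 0.0134). The AMPK subunit Prkab1 rose (0.35, adjusted p 0.00563). The Rag GTPase Rragd rose by 1.30 (adjusted p 0.000779), from 0.245 to 1.00 CPM in young mice to 0.935 to 2.36 CPM in old mice. Bcl2, which binds Beclin, rose by 1.58 (adjusted p 0.00737) at levels of 0.165 to 0.579 CPM in young and 0.208 to 3.84 CPM in old mice. Tfeb, a master regulator of autophagy and lysosomal genes, had an estimate of -0.01 (SE 0.141, adjusted p 0.974). Its edgeR estimate was 0.27 on the first cull day (adjusted p 0.422) and -0.33 on the second (adjusted p 0.0985). The interaction of age and day did not pass (-0.60, adjusted p 0.710). Once the other-cell score was added, Bcl2 (0.35, adjusted p 0.524), Prkaa2 (-0.27, adjusted p 0.260), Foxo3 (-0.69, adjusted p 0.0829), Atg2b (-0.18, adjusted p 0.281), Ei24 (-0.15, adjusted p 0.317), Tmem41b (-0.20, adjusted p 0.181) and Ncoa4 (-0.26, adjusted p 0.0512) no longer passed. In that fit Ykt6 (-0.30, adjusted p 0.00414), Trp53inp2 (-0.63, adjusted p 0.00925) and Rptor (-0.36, adjusted p 0.0407) were still lower, and Rragd (0.77, adjusted p 0.0248) and Prkab1 (0.37, adjusted p 0.0337) still higher.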

How the data were processed

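Polyadenylated RNA of hepatocytes from 10 young and 9 old mice was sequenced as stranded paired-end libraries, per the labels' protocols. The authors deposited a table of estimated counts per gene, made with HOMER's analyzeRepeats.pl on exons of RefSeq transcripts for mm10, condensed to genes and not normalized, per the file headers. The submitters' processing notes also name STAR and GRCm38. Versions, strand setting and handling of reads with several matches are not given in the sources used here, so overlapping genes (8 autophagy genes) and near-identical copies are uncertain.

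The deposited values are multiples of 0.5 and 29.2% were not whole, so the estimated counts were rounded before the tests, which had been planned for plain counts. Of each library's header total, 78.34% to 86.52% lay in genes. Totals were 17381439 to 20287628 counts per library. Genes passing filterByExpr by age (minimum count 10) were tested with edgeR 4.0.16 in R 4.3.3 (quasi-likelihood, TMM scaling, cull day covariate, Benjamini-Hochberg over 12269 genes, threshold 0.05), checked on simulated data. Standard errors are the absolute log2 fold change over the root of F. Levels are TMM-scaled CPM, and per-length levels use the table's transcript lengths. DESeq2 1.42.0, limma 3.58.1, other scalings, filters and subsets were alternatives, and those for the ratios, the CPM scale for outlying mice and the interaction without 3 young libraries, were added after seeing the data. Ratios used an offset of 0.1 CPM and carry no test, since their pairs were chosen with the values known.

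The members, gene lists, marker lists, pairs and subsets were chosen with earlier results of these data known. All 38 members may be named, with per-mouse ranges for those past the threshold and for the most abundant of each role that are not. Of the other pathway genes, those past the threshold with the 4 smallest p per list and direction are named, and Tfeb was added after its value was seen.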

Additional observations from a re-analysis of the deposited data

Results flagged for a closer look

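In 6 of the 76 combinations of an autophagy gene and an age group, the highest or lowest mouse lay, on the log2 CPM scale, farther from its nearest neighbour than Dixon's 95% critical value allows for 10 young or 9 old mice. Chance flags about 1 group in 20, or 3.8 of 76. Old library 1189 accounted for 4 of the 6, as the highest old mouse each time: Sqstm1 was at 556 CPM there and at 399.8 to 465 CPM in the other old mice, Atg13 at 65.5 against 36.6 to 48.9 CPM, Atg2a at 60.8 against 34.4 to 44.6 CPM, and Atg14 at 17.5 against 14.1 to 15.7 CPM. Uvrag was low in old library 1240, at 17.8 CPM against 21.2 to 23.9 CPM. Gabarap was low in young library 1180, at 118 CPM against 144 to 163 CPM. On the CPM scale the same 6 were found and 1 more, Ulk1 in old library 1189, at 64.4 CPM against 49.0 to 56.6 CPM. Without library 1189, Atg13 and Atg2a passed the age test in the lower direction.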

How the results depend on the processing

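The number of autophagy genes called by age was 17, and 12 to 19 under other scalings, filters, tools and without cull day, all lower. It was 2 and 6 with the first and second cull day alone and 8 with the other-cell score, where all genes called numbered 450, 2389 and 1567 and other pathway genes 0, 6 and 7. Leaving out each library gave 15 to 22. Among the interactions limma-voom called 2, and by cull day, where the main count was 2 (12.3% of all tested genes), 1 autophagy gene was called with library totals (8.92%), 1 with no filter (5.45%), 3 at a mean of at least 1 CPM (12.9%), 3 with limma-voom (17.7%) and 4 with DESeq2 (16.8%). No called gene changed sign under any alternative run. Of those that did not pass, estimates turned sign as follows. On the first cull day they were 0.16 (Atg4a), 0.12 (Map1lc3a), 0.03 (Gabarapl1), 0.08 (Optn) and 0.12 (Pink1). On the second they were -0.02 (Pik3c3), -0.01 (Pik3r4), -0.06 (Sqstm1) and -0.22 (Bnip3). With the other-cell score they were 0.02 (Atg3), 0.17 (Atg4a), 0.09 (Map1lc3a), 0.17 (Gabarapl1), 0.09 (Optn) and 0.14 (Pink1). Without young 1184, 1186 and 1188 they were -0.02 (Pik3r4), -0.02 (Sqstm1) and -0.19 (Bnip3). With library totals they were 0.00 (Atg4a), 0.04 (Optn) and 0.02 (Pink1), and with no filter -0.01 (Pik3r4), -0.01 (Sqstm1) and -0.02 (Bnip3). Bnip3 was at -0.00 with DESeq2 or its size factors and -0.02 without cull day. Optn was at 0.00 with limma-voom and without old 1187 and 0.01 at a mean of at least 1 CPM, and Sqstm1 at -0.00 with limma-voom. Leaving out each library gave -0.12 to 0.06 (Atg4a), -0.06 to 0.08 (Bnip3), -0.04 to 0.02 (Optn), -0.01 to 0.06 (Pik3r4), -0.06 to 0.00 (Pink1) and -0.03 to 0.04 (Sqstm1). Among the 12 ratios, the log2 difference turned to 0.18 (Map1lc3b to Map1lc3a), 0.10 (Gabarapl2 to Gabarapl1) and -0.10 (Wipi2 to Wipi1) without the 3 young libraries, and to -0.01 (Wipi2 to Wipi1) with an offset of 1 CPM. By first and second cull day the signs differed for Map1lc3b to Map1lc3a (-0.41 and 0.31), Gabarapl2 to Gabarapl1 (-0.41 and 0.10), Gabarapl1 to Gabarap (0.18 and -0.20), Wipi2 to Wipi1 (0.10 and -0.09) and Bnip3l to Bnip3 (-0.41 and 0.02). Leaving out each library gave -0.12 to 0.01 (Map1lc3b to Map1lc3a), -0.08 to 0.10 (Gabarapl1 to Gabarap), -0.06 to 0.05 (Wipi2 to Wipi1) and -0.06 to 0.04 (Optn to Sqstm1). The cause was not tested. No paired analysis was possible because library numbers are not shared between the ages. At these totals the lowest-count rows (Atg4a and Atg10) limit what can be told apart.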
